A study of Arabidopsis thaliana with 30 samples.

Results

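The 9 genes described here are GIGANTEA (GI), the ZEITLUPE family of blue light receptors (FKF1, ZTL and LKP2) and 5 REVEILLE factors (RVE1, RVE2, RVE4, RVE6 and RVE8) of Arabidopsis thaliana. They were taken from the gene count table by locus, without reference to their values, as 9 of 38217 features. All 9 passed the filter on low counts that left 23222 features for the tests. RNA was sequenced from wild-type Col-0 seed at 10 time points with 3 libraries each, 30 in all. The series began with freshly collected seed (H) and the same seed once ripened dry in darkness (0 h), followed by seed imbibed in the cold and dark for 1, 12 or 48 h (stratification, 1 h S to 48 h S), and seed or seedlings 1, 6, 12, 24 or 48 h after 48 h of stratification and transfer to warm continuous light (1 h SL to 48 h SL). All time points shared the genotype, all seed came from 1 batch of plants grown in long days, and the plates held sucrose. The hour of day at which each sample was taken is not given in the sources used here. At each change of condition after 0 h, light, temperature and time in water changed together or followed each other, and their effects cannot be told apart.

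GI and the ZTL family are regulators of protein stability in the plant circadian clock and in day length sensing. ZTL, FKF1 and LKP2 are F-box proteins, the parts of ubiquitin ligases that choose a target, and each carries a LOV domain that senses blue light. ZTL marks the clock repressors TOC1 and PRR5 for degradation, FKF1 marks the CYCLING DOF FACTOR (CDF) repressors of flowering genes, and GI binds and stabilises members of the family in the light. The RVE proteins are MYB-like transcription factors related to the morning clock factors CCA1 and LHY. RVE8, RVE4 and RVE6 activate evening genes through the evening element together with LNK coactivators, whereas RVE1 and RVE2 are known in seeds as promoters of dormancy, and RVE1 represses the gibberellin synthesis gene GA3OX2.

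Levels are given in CPM, the reads of a gene scaled to the total of its library, and genes are compared with each other only by RPKM, which also divides by the summed exon length. The positions are those of TAIR10. GI lies on the plus strand at chr1:8061751-8067790, FKF1 at chr1:25508639-25510907 (plus), ZTL at chr5:23241320-23244590 (plus) and LKP2 at chr2:8194512-8197483 (minus). RVE1 lies at chr5:5690225-5692992 (minus), RVE2 at chr5:14751344-14753088 (minus), RVE4 at chr5:648648-651979 (plus), RVE6 at chr5:21359001-21362273 (minus) and RVE8 at chr3:2946239-2949017 (plus). The libraries did not mark strand. Exons of FKF1 overlapped those of AT1G68060 on the opposite strand, which had a mean of 20.4 CPM, so FKF1 reads there cannot be assigned with certainty. Exons of LKP2 overlapped those of AT2G18917 on the opposite strand (mean 0.063 CPM), and those of RVE1 overlapped AT5G17305 on the opposite strand, which had no reads. The low counts of these neighbours do not show how many LKP2 or RVE1 reads in the shared stretches were left uncounted.

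Of the 9 genes, FKF1, RVE1 and RVE2 rose between 1 h S and 12 h S, and the 300 bp upstream of their annotated starts are shown because these are the only members that did so. The sequences were read from the RefSeq copy of the TAIR10.1 genome, in which all 9 members had the start and end of the count table. They are written 5′ to 3′ in the direction of the gene and end at the base before the start. Capitals mark matches, on either strand, to 3 short motifs. These were the evening element (AAATATCT or its reverse complement AGATATTT), the CCA1-binding site (AAAAATCT or AGATTTTT) and the G-box (CACGTG), and no 2 matches overlapped in a member.
FKF1, chr1:25508339-25508638, plus strand: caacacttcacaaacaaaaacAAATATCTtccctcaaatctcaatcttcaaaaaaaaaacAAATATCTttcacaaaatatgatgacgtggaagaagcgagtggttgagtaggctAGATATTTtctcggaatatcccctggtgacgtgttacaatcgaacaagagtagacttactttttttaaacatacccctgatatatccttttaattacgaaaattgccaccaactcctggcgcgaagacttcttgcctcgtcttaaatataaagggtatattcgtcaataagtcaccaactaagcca
RVE1, chr5:5692993-5693292, minus strand: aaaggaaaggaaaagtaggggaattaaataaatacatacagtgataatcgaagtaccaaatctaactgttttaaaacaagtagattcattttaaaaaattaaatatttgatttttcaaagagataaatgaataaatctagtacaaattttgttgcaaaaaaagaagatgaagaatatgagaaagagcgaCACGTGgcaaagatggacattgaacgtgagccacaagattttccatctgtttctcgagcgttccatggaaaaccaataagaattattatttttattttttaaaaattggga
RVE2, chr5:14753089-14753388, minus strand: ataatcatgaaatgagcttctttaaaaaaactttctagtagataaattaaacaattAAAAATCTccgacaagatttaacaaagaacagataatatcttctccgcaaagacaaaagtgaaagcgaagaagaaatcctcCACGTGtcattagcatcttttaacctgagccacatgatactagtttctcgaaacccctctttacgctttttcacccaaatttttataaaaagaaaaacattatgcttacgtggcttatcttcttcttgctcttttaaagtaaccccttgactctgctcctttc

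The FKF1 window held 3 evening elements, starting at positions -279, -240 and -186 counted from the start of the gene. RVE1 held a G-box at -111, and RVE2 held a G-box at -163 and a CCA1-binding site at -244. Among the other members, LKP2 held a CCA1-binding site at -218 and RVE6 at -58, and GI, ZTL, RVE4 and RVE8 held none of these letters. Of 22702 upstream windows of the same length at annotated genes that passed the filter, 5.62% held an evening element, 7.71% a CCA1-binding site and 7.87% a G-box. A match is a description of the letters and no evidence that a factor binds there.

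The total count of a library was 47254122 at the median, with 8234345 as the lowest (1 h S replicate 2) and 76294780 as the highest (48 h SL replicate 3). The 9 seed storage and oil body markers summed to between 140996 and 144684 CPM at H and to between 382 and 430.2 CPM at 48 h SL, and the 5 photosynthesis markers went from between 28.9 and 34.1 CPM to between 9229 and 10745 CPM. In these whole seeds and seedlings, fewer cells of a type and less RNA per cell cannot be told apart. Several libraries stood apart from their replicates. These were 1 h S replicate 2 (lowest depth and 702 CPM of photosynthesis markers, against 41.1 and 179 CPM), 1 h S replicate 3, 1 h SL replicate 2 and 6 h SL replicate 3 (each with more seed coat and endosperm marker reads than their replicates), and 12 h SL replicate 3 (12038278 reads). Counts and calls were also computed with 4 of these left out, an alternative chosen after seeing the data. The 4 were 1 h S replicate 2, 1 h SL replicate 2, 6 h SL replicate 3 and 12 h SL replicate 3. The library 1 h S replicate 3 was kept. It also had more seed storage and oil body marker reads than its replicates (138664 CPM, against 75693 and 83161). So did 1 h SL replicate 2 (50101 CPM, against 31127 and 33866), with 188 CPM of photosynthesis markers against 86.5 and 91.5.

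All 9 members varied over time by the DESeq2 likelihood ratio test, at an adjusted p below 0.01, as did 73.8% of 32046 genes tested. The largest adjusted p among the members was 4.42e-28, for GI. Changes between time points were then tested with edgeR, and a change was called at an adjusted p below 0.01. Over the 9 steps from each time point to the next, RVE2 was called 7 times, FKF1 and RVE8 6 times each and RVE1 5 times. GI, ZTL, LKP2, RVE4 and RVE6 were called 2 times each. For ZTL, LKP2, RVE4 and RVE6 both calls were falls.

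**Figure D1:**
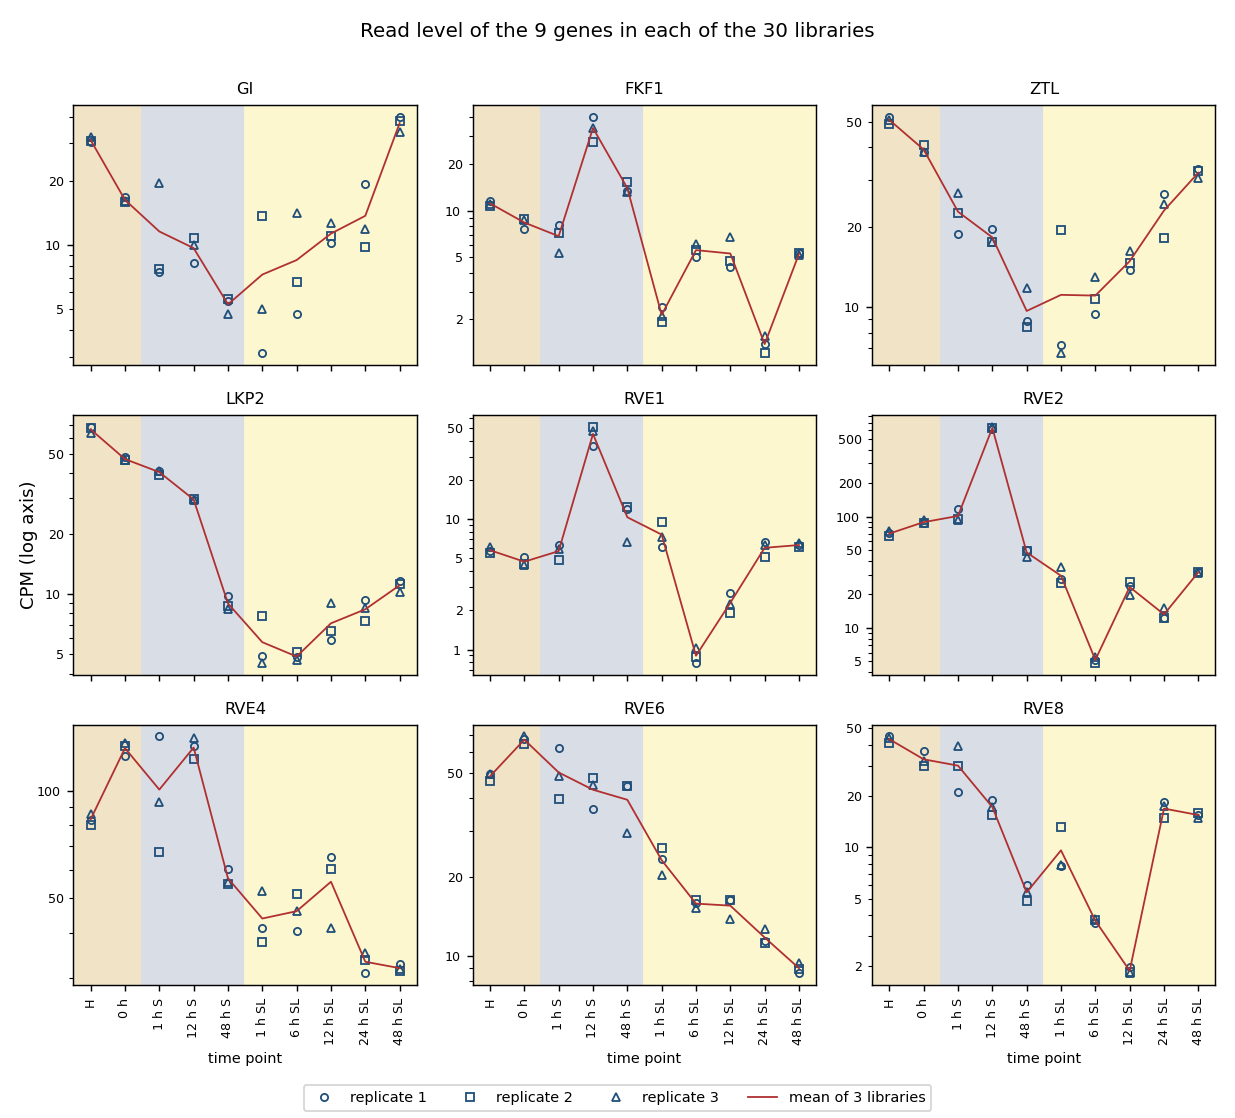
Read level (CPM, log axis) of each of the 9 genes in each of the 30 libraries over the 10 time points; symbols are replicates, the red line joins the means of 3 libraries, and the background marks dry seed (tan), cold and dark (grey) and light (yellow). FKF1, RVE1 and RVE2 are highest at 12 h S in all 3 libraries, and GI is highest at 48 h SL and at H.

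In CPM, GI started high in freshly harvested seed, fell to its lowest mean at 48 h S and was highest in seedlings at 48 h SL. Its levels in the dry seed were 30.4, 30.8 and 32.1 CPM at H and 16.7, 16.0 and 16.2 CPM at 0 h. Stratification gave 7.45, 7.77 and 19.6 CPM at 1 h S, 8.25, 10.8 and 9.97 CPM at 12 h S, and 5.47, 5.60 and 4.76 CPM at 48 h S. The dry seed libraries did not overlap with those of 48 h S, while 1 h S replicate 3 stood above both of its replicates. In the light GI had 3.11, 13.7 and 5.03 CPM at 1 h SL, 4.74, 6.70 and 14.1 CPM at 6 h SL, and 10.3, 11.03 and 12.7 CPM at 12 h SL. It then reached 19.4, 9.84 and 11.9 CPM at 24 h SL and 40.1, 38.1 and 33.9 CPM at 48 h SL. In CPM the 48 h SL libraries lay above all others, and 7 of the 9 pairs of neighbouring time points in the order of GI means overlapped.

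By edgeR, GI fell between 12 h S and 48 h S (log2 fold change -1.16 ± 0.36, SE, adjusted p = 0.00686) and rose between 24 h SL and 48 h SL (1.37 ± 0.35, adjusted p = 0.00181). The fall was called with all libraries and lost its call when any of 5 single libraries was left out (12 h S replicates 2 and 3 and each 48 h S replicate, adjusted p 0.0167 to 0.0239), and with library size alone (0.0621), and the rise lost it without 24 h SL replicate 2 (0.0156) or replicate 3 (0.0124). GI fell from 0 h to 48 h S by 2.11 ± 0.37 on the log2 scale (adjusted p = 1.13e-05), and between 48 h S and 48 h SL it rose by 2.08 ± 0.36 (adjusted p = 7.58e-06). Between 0 h and 48 h SL the log2 fold change of GI was -0.03 ± 0.35 (adjusted p = 0.939) with TMM scaling, whereas scaling by library size alone gave 1.20 (adjusted p = 0.00686), as in the CPM. In that comparison the median over all genes was 0.44 (TMM) or 1.66 (library size alone), so a level in CPM and a TMM fold change differ most there.

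The spread of GI within a time point went along with the seed coat and endosperm markers. At 1 h S these summed to 3366, 3650 and 8884 CPM in replicates 1 to 3, at 1 h SL to 490.1, 2318 and 625 CPM, and at 6 h SL to 292, 254 and 1644 CPM, and the high library was the highest for GI each time. The library highest for the markers was also highest for GI at 7 of 10 time points, against 6 of 10 for RVE1, 5 of 10 for ZTL, LKP2 and RVE8, and 1 to 3 of 10 for the other members. The sum was almost all 1 gene, an extensin (AT2G27380), since the seed coat genes BAN, TT10 and TT12 had means of at most 0.501 CPM. Of these, TT10 had its highest mean at 48 h SL (0.306 CPM), where the extensin was lowest. The library highest for the photosynthesis markers was highest for GI at 7 of 10 time points as well, and that highest for the storage and oil body markers at 4 of 10. With 3 libraries a time point, some such matches arise by chance. The part of these tissues or of RNA quality in the GI values was not tested.

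**Figure D2:**
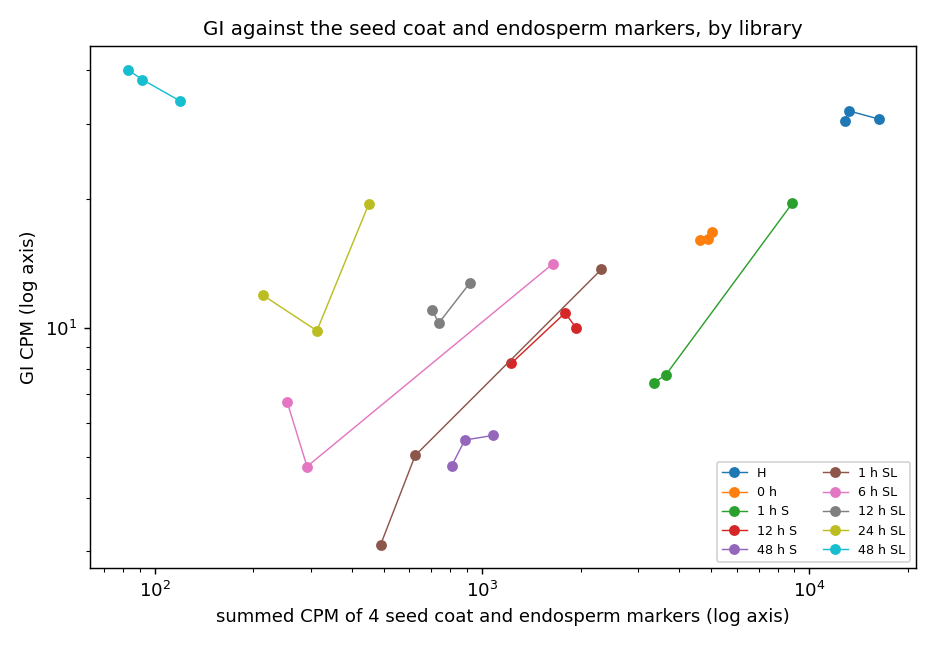
GI level (CPM, log axis) against the summed CPM of 4 seed coat and endosperm markers (log axis); each point is a library and lines join the 3 libraries of a time point. At 1 h S, 1 h SL and 6 h SL a single library, with 19.6, 13.7 and 14.1 CPM of GI, lies apart on both axes, and the 48 h SL libraries have the lowest marker sums and the highest GI.

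FKF1, the family member that targets the CDF repressors, had a single high peak in the cold. Its levels were 11.5, 10.8 and 11.1 CPM at H, 7.58, 8.81 and 8.75 CPM at 0 h, and 8.05, 7.17 and 5.35 CPM at 1 h S. They reached 40.2, 27.5 and 34.1 CPM at 12 h S and were 13.4, 15.2 and 13.2 CPM at 48 h S. After 1 h of light they were 2.39, 1.93 and 2.098 CPM, then 5.02, 5.59 and 6.12 CPM at 6 h SL, 4.33, 4.76 and 6.81 CPM at 12 h SL, 1.39, 1.21 and 1.56 CPM at 24 h SL, and 5.34, 5.31 and 5.16 CPM at 48 h SL. All libraries of 12 h S lay above all others, and those of 1 h SL and 24 h SL below all others, without overlap with their neighbours in time.

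FKF1 rose between 1 h S and 12 h S (log2 fold change 2.26 ± 0.21, adjusted p = 2.27e-09) and fell between 12 h S and 48 h S (-1.58 ± 0.20, adjusted p = 1.22e-07). The fall in the first hour of light was the largest of its steps (-2.79 ± 0.22, adjusted p = 5.03e-10). In the light it alternated, with a rise to 6 h SL (1.25 ± 0.22), no call to 12 h SL (-0.28 ± 0.21, adjusted p = 0.317), a fall to 24 h SL (-2.16 ± 0.23) and a rise to 48 h SL (1.84 ± 0.22). These 4 steps differed in time length, and none of the calls depended on a single library. From 0 h to 48 h S the log2 fold change of FKF1 was 0.24 ± 0.20 (adjusted p = 0.286), the only member not called there with TMM scaling. Its libraries at the 2 times did not overlap in CPM, and with library size alone it was called higher (0.73, adjusted p = 0.000381).

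ZTL and LKP2, the relatives of FKF1, were highest in freshly harvested seed and fell through stratification. ZTL had 49.1 to 52.3 CPM at H, 8.42 to 11.8 CPM at 48 h S and 30.7 to 33.1 CPM at 48 h SL. LKP2 had 63.4 to 68.6 CPM at H, 8.37 to 9.76 CPM at 48 h S, 4.66 to 5.10 CPM at 6 h SL and 10.3 to 11.6 CPM at 48 h SL. ZTL thus returned to a higher level in the seedling than LKP2 did: between 48 h S and 48 h SL the log2 fold change was 0.99 ± 0.23 for ZTL (adjusted p = 0.000224) and -0.44 ± 0.17 for LKP2 (adjusted p = 0.0184), which was called at a similar size without the 4 libraries (-0.44, adjusted p = 0.000746) and with the 6 libraries alone (-0.47, adjusted p = 0.00100), while library size alone turned it to 0.30 (adjusted p = 0.0794). The difference between these 2 genes was not tested. ZTL was the only member called between 0 h and 1 h S (-0.98 ± 0.23, adjusted p = 0.00828). ZTL was the 1 of 9 members called, against 3.28% of all genes. That call was lost without any 0 h replicate (adjusted p 0.0204 to 0.0494), without 1 h S replicate 2 (0.0708) or with library size alone (0.0452), and without 1 h S replicate 1 there were 4 members called, all lower. At 1 h SL, replicate 2 had 19.5 CPM of ZTL and the others 7.18 and 6.70 CPM, the library with the raised seed coat and endosperm markers.

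Per unit of exon length, the leading member of the ZTL family changed over the series. LKP2 made up 52.2% of the summed RPKM of the 3 genes at H, 50.2% at 0 h and 58.0% at 1 h S. Any LKP2 reads lost to its exon overlap would lower these shares. FKF1 made up 9.47% at H, 43.7% at 12 h S and 45.3% at 48 h S, and 12.4% at 1 h SL. From 1 h SL on ZTL led, with 57.0% at 1 h SL, 69.2% at 24 h SL and 64.8% at 48 h SL, where FKF1 had 12.0%. At 12 h S the RPKM of FKF1 (15.7 ± 2.94, SD, n = 3) and LKP2 (12.6 ± 0.0434) overlapped between libraries, so the order of these 2 at that time was not distinguishable, and at 48 h S ZTL and LKP2 overlapped.

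**Figure D3:**
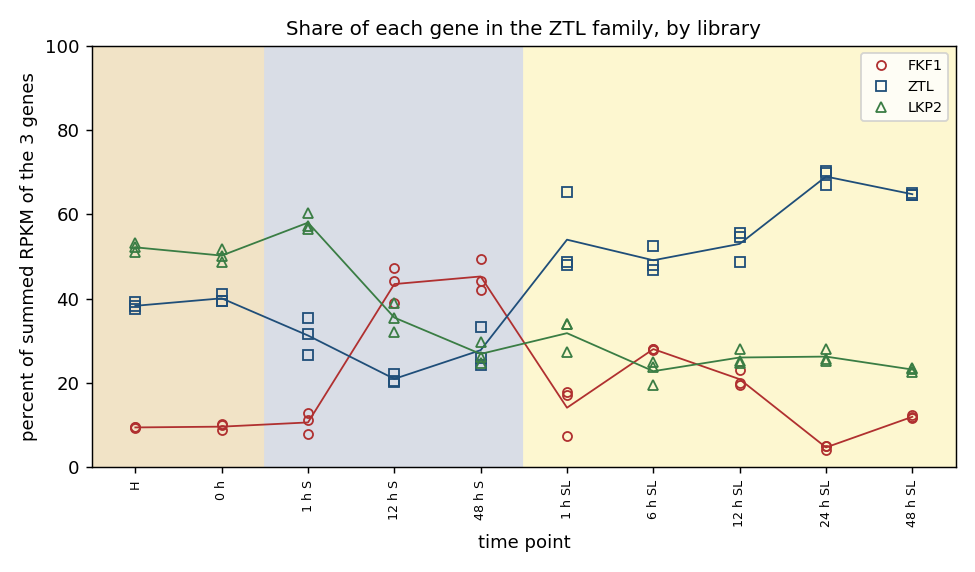
Percent of the summed RPKM of FKF1, ZTL and LKP2 that each gene took in each library; lines join the means of 3 libraries. FKF1 goes from 9.47% at H to 43.7% at 12 h S and 12.4% at 1 h SL, and ZTL is the highest of the 3 from 1 h SL to 48 h SL.

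RVE2, also known as CIRCADIAN 1, was the most abundant member per length at 7 of the 10 time points and had the widest range, with a 121-fold ratio between its highest and lowest mean CPM. It had 70.5, 66.5 and 74.1 CPM at H, 88.0, 86.8 and 92.7 CPM at 0 h, and 116, 94.6 and 93.1 CPM at 1 h S. At 12 h S it reached 616, 619 and 645 CPM, and at 48 h S it was back at 50.4, 49.0 and 43.5 CPM. In the light it had 27.7, 25.4 and 35.1 CPM at 1 h SL, 5.18, 4.82 and 5.48 CPM at 6 h SL, 24.0, 26.0 and 19.9 CPM at 12 h SL, 12.3, 12.2 and 15.2 CPM at 24 h SL, and 31.8, 31.7 and 31.3 CPM at 48 h SL. The 12 h S libraries were far above all others and the 6 h SL libraries below all others, and only 2 of 9 pairs of neighbouring time points in its order of means overlapped.

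The rise of RVE2 to 12 h S (log2 fold change 2.58 ± 0.20, adjusted p = 4.25e-11) was followed by a fall to 48 h S of 4.00 ± 0.21 on the log2 scale (adjusted p = 1.27e-14), the largest change of any member at any step. RVE2 fell again in the first hour of light (-0.77 ± 0.19, adjusted p = 0.00546) and to 6 h SL (-2.64 ± 0.20, adjusted p = 5.79e-11). The call at the first of these was lost without any of 5 libraries (the 48 h S replicates, 1 h SL replicate 1 or 1 h SL replicate 2, adjusted p 0.0120 to 0.0490). It then rose to 12 h SL (2.00 ± 0.20), fell to 24 h SL (-1.09 ± 0.19) and rose to 48 h SL (1.18 ± 0.19), with adjusted p of at most 2.4e-05. RVE2 made up 84.4% of the summed RPKM of the 5 RVE genes at 12 h S, against 13.6% at 6 h SL.

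RVE1 rose to 12 h S, fell to 48 h S and 6 h SL and rose to 12 h SL as RVE2 did, at lower levels per length, while its difference in the first hour of light was not called (-0.54 ± 0.20, adjusted p = 0.0637). It had 5.71, 5.47 and 6.15 CPM at H, 5.16, 4.497 and 4.49 CPM at 0 h, and 6.32, 4.86 and 5.86 CPM at 1 h S. It reached 36.4, 51.3 and 47.4 CPM at 12 h S and 12.0, 12.4 and 6.66 CPM at 48 h S. After 1 h of light it had 6.14, 9.43 and 7.25 CPM, and at 6 h SL 0.786, 0.875 and 1.03 CPM, its lowest level. It recovered to 2.71, 1.896 and 2.24 CPM at 12 h SL, 6.63, 5.16 and 6.29 CPM at 24 h SL, and 6.33, 6.07 and 6.58 CPM at 48 h SL. The libraries of 12 h S were the highest and those of 6 h SL the lowest without overlap.

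The rise of RVE1 to 12 h S was 2.90 ± 0.22 on the log2 scale (adjusted p = 2.89e-11), the fall to 48 h S was -2.41 ± 0.21 (adjusted p = 9.17e-11) and the fall from 1 h SL to 6 h SL was -3.19 ± 0.23 (adjusted p = 2.78e-11). It rose to 12 h SL (1.18 ± 0.25, adjusted p = 0.000541) and again to 24 h SL (1.12 ± 0.22, adjusted p = 0.000111), a step at which RVE2 fell. RVE1 was the only member that rose between 0 h and 48 h S with TMM scaling (0.64 ± 0.21, adjusted p = 0.00698), but the call was lost with DESeq2 size factors (0.49, adjusted p = 0.0275), with the 6 libraries alone, with the DESeq2 Wald test and without any of 5 libraries (each 0 h replicate and 48 h S replicates 1 and 2, adjusted p 0.0216 to 0.0741). From 0 h to 48 h SL it fell with TMM scaling (-0.80 ± 0.21, adjusted p = 0.000888) and had a log2 fold change of 0.42 with library size alone (adjusted p = 0.0529). Over the 30 libraries, log2(CPM + 1) of RVE1 and RVE2 had a Pearson correlation of 0.82, a description only, since the libraries share time points and depth.

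RVE8, an activator of evening genes, had no peak at 12 h S. It had 44.7, 40.9 and 43.6 CPM at H, 36.5, 29.98 and 32.0 CPM at 0 h, 21.1, 29.9 and 39.4 CPM at 1 h S, and 18.9, 15.6 and 17.2 CPM at 12 h S. At 48 h S it had fallen to 6.02, 4.86 and 5.46 CPM. It had 7.80, 13.2 and 7.84 CPM at 1 h SL, 3.58, 3.72 and 3.82 CPM at 6 h SL, and 1.98, 1.85 and 1.83 CPM at 12 h SL. It returned to 18.4, 14.9 and 17.4 CPM at 24 h SL and 15.5, 16.0 and 15.0 CPM at 48 h SL. The 12 h SL libraries were the lowest of the series and did not overlap with any other.

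RVE8 fell to 12 h S (-0.78 ± 0.16, adjusted p = 0.000245), a call that was lost with the 6 libraries alone (-0.86, adjusted p = 0.0171), and to 48 h S (-1.95 ± 0.17, adjusted p = 8.63e-11), and again to 6 h SL (-1.47 ± 0.17) and 12 h SL (-1.14 ± 0.18). Between 12 h SL and 24 h SL it rose by 2.88 ± 0.19 on the log2 scale (adjusted p = 3.89e-12), the largest rise of any member at that step. Its rise in the first hour of light (0.71 ± 0.16, adjusted p = 0.00364) included 1 h SL replicate 2 and was no longer called without it (0.55, adjusted p = 0.0267), without 48 h S replicate 2 (0.63, adjusted p = 0.0261) or without the 4 libraries that stood apart (0.52, adjusted p = 0.0128).

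RVE4 and RVE6, the other members of the activator group, declined with few steps of change. RVE4 had 80.4 to 86.3 CPM at H, 125.0 to 135.6 CPM at 0 h, 122.6 to 140.1 CPM at 12 h S and 31.4 to 32.7 CPM at 48 h SL. It fell between 12 h S and 48 h S (-1.50 ± 0.26, adjusted p = 1.66e-05) and between 12 h SL and 24 h SL (-1.02 ± 0.26, adjusted p = 0.00157). The latter call was lost without 12 h SL replicate 1 (adjusted p = 0.0111) or 24 h SL replicate 1 (0.0110). At 1 h S the shallow replicate 2 had 67.2 CPM of RVE4 and the others 142 and 93.1 CPM. RVE6 went from 64.8 to 69.1 CPM at 0 h to 8.57 to 9.38 CPM at 48 h SL, a log2 fold change of -4.13 ± 0.23 (adjusted p = 6.78e-15), the largest fall of any member over that interval. RVE6 was the only member not called between 12 h S and 48 h S (-0.41 ± 0.21, adjusted p = 0.0852), fell in the first hour of light (-0.86 ± 0.21, adjusted p = 0.00523) and missed the threshold to 6 h SL (-0.67 ± 0.21, adjusted p = 0.0102). Its call in the first hour was lost without any of 4 libraries (48 h S replicates 1 and 2 and 1 h SL replicates 2 and 3, adjusted p 0.0199 to 0.0343) and with the 6 libraries alone (0.0289). The call of its fall to 24 h SL (-0.69 ± 0.21, adjusted p = 0.00698) was lost without any library of that step other than 12 h SL replicate 3. It was also lost with library size alone (-0.41, adjusted p = 0.0307).

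**Figure D4:**
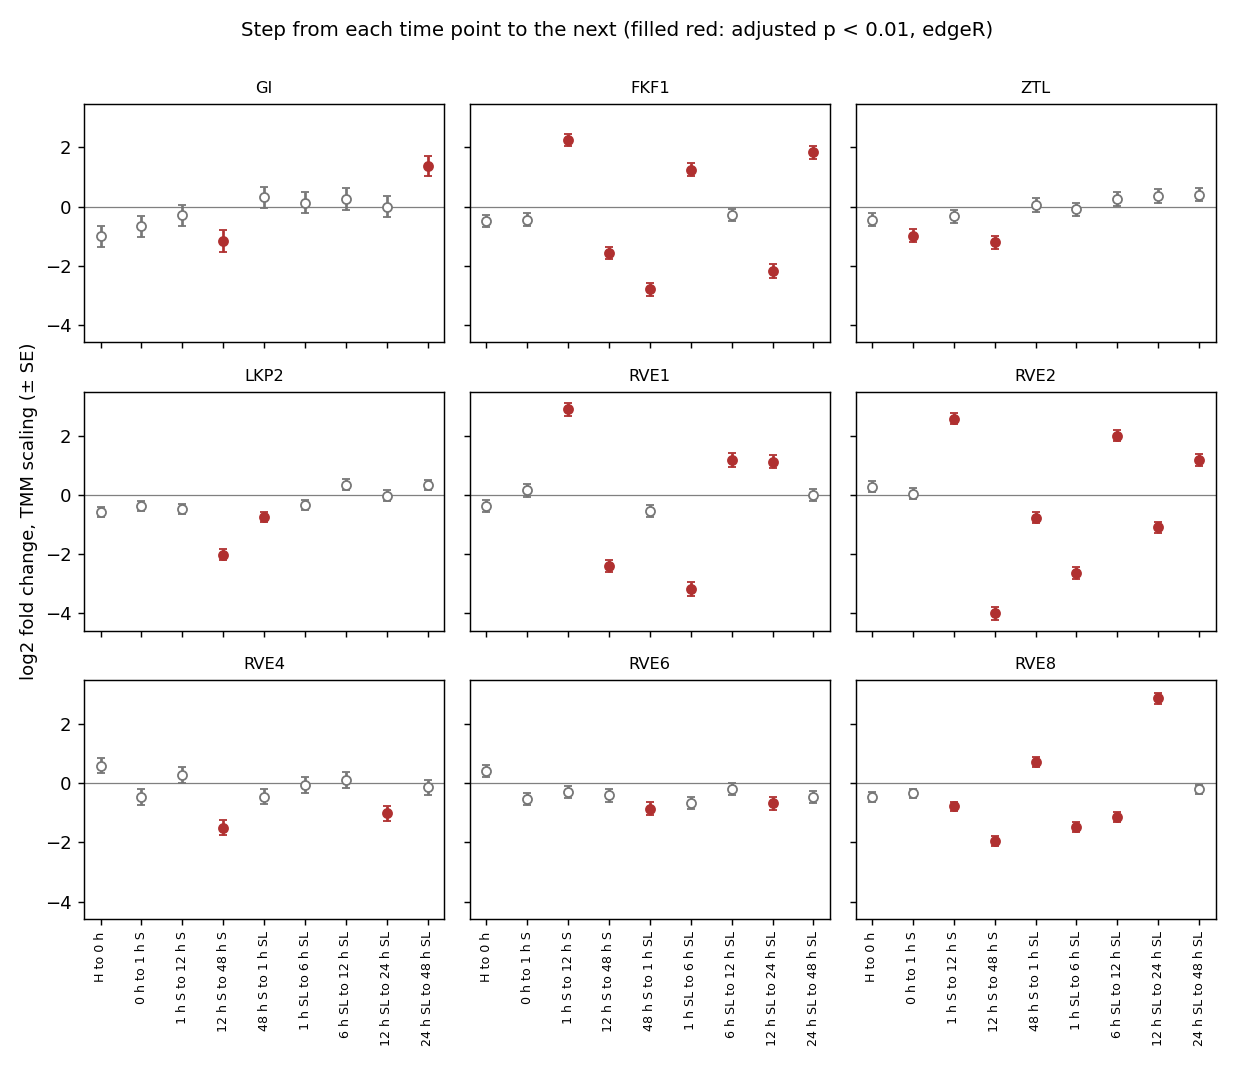
Log2 fold change (TMM scaling, ± SE) of each of the 9 genes at each of the 9 steps between consecutive time points, from the edgeR fit to 30 libraries; filled red points have an adjusted p below 0.01. The rises of FKF1 (2.26), RVE1 (2.90) and RVE2 (2.58) to 12 h S stand beside a fall of RVE8 (-0.78), and RVE8 has the rise of 2.88 to 24 h SL.

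By time point, the members moved together most in the second part of stratification. Between 12 h S and 48 h S, 8 of 9 members fell and none rose, against 24.8% of all genes tested that fell and 27.0% that rose. The median log2 fold change of the members was -1.58 and that of all genes 0.02. Between 1 h S and 12 h S, 3 members rose (18.1% of all genes) and 1 fell (17.7%). Without the 4 libraries that stood apart, 7 members were called at that step, 3 higher and 4 lower, with ZTL, LKP2 and RVE6 added to RVE8. The share of all genes called in that fit is not given, and the percentages above are those with all libraries. Between H and 0 h no member was called by edgeR, against 8.82% of all genes, although the libraries of the 2 times did not overlap in CPM for any member, as for 55.5% of all genes. By edgeR, 5 members had an unadjusted p below 0.05 at that step, as did 8320 of 23222 features, and 3 had an adjusted p below 0.05. The DESeq2 Wald test called 1 member, the fit without the 4 libraries 5 and a fit to the 6 libraries alone 8. The shares of all genes called in these other fits are not given, so their counts cannot be set against a background. GI, with 1.00 ± 0.35 less on the log2 scale (adjusted p = 0.0409), had the largest difference.

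In the light the calls were split between directions. In the first hour, FKF1, LKP2 (-0.75 ± 0.17, adjusted p = 0.00331), RVE2 and RVE6 fell and RVE8 rose, with 3.66% of all genes lower and 4.43% higher. The number called there depended on single libraries: without 48 h S replicate 2 only 1 member was called, without 48 h S replicate 1 or 1 h SL replicate 2 there were 2, and without 1 h SL replicate 1 or 3 there were 3. A fit to the 6 libraries of that step alone called 1. From 1 h SL to 6 h SL, 1 member rose and 3 fell (17.3% and 16.8% of all genes). From 6 h SL to 12 h SL, 2 rose and 1 fell (10.7% and 12.9%). From 12 h SL to 24 h SL 2 rose and 4 fell (25.9% and 22.0%). In the last step, to 48 h SL, 3 rose and none fell (21.9% and 19.0%), and without the 4 libraries that stood apart 4 rose, with ZTL added. Between 12 h SL and 24 h SL the count was 4 without 12 h SL replicate 1 or 24 h SL replicate 1. The shares of all genes called are not given for the fits with libraries left out or to the 6 libraries alone.

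Over longer intervals most genes of the series were called, and the members were mostly lower. Between 0 h and 48 h S, 1 member rose and 7 fell, with 33.2% and 28.5% of all genes. Between 48 h S and 48 h SL, 3 rose and 5 fell, with 44.2% and 36.9% of all genes. Between 0 h and 48 h SL, 8 fell and none rose, with 33.3% and 45.8% of all genes. With library size alone 6 fell and 1 rose, since GI was called higher and ZTL (-0.29, adjusted p = 0.283) and RVE1 were not called, and of all genes 4135 were then lower and 14736 higher. With TMM scaling the median of the members was -2.31 against 0.44 for all genes. These intervals share the libraries at their ends and are not independent of each other.

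The order of the members by RPKM shows which of the related genes supplied most transcripts. RVE2 led at H (71.8 ± 3.90 RPKM, SD, n = 3), at every time point through 1 h SL and again at 48 h SL (32.3 ± 0.266 RPKM). RVE4 led at 6, 12 and 24 h SL, although its libraries overlapped with those of RVE2 at 12 and 24 h SL. RVE1 was last at H, 0 h and 6 h SL, GI at 1, 12 and 48 h S, RVE8 at 12 h SL, and FKF1 was last at 1, 24 and 48 h SL. At 48 h SL no pair of neighbours in the order overlapped, which ran RVE2, RVE4, ZTL, GI, RVE8, RVE6, LKP2, RVE1 and FKF1. At 24 h SL 5 of the 8 neighbouring pairs overlapped.

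Transcript levels were on a scaled TPM scale, and they were listed for 1 transcript of GI, FKF1 and RVE2 and for 2 or more of the others, up to 9 for RVE8. The log2 ratio of the 2 transcripts with the highest mean over the series changed over time, by a limma F-test on log2 values with a pseudocount of 0.1, for ZTL (adjusted p = 0.000249), LKP2 (0.000798), RVE1 (0.000324) and RVE8 (0.0017), and missed the threshold of 0.01 for RVE4 (0.0429) and RVE6 (0.733). With a pseudocount of 1 there were 5 members called, RVE4 included, and 3 where both transcripts had to have a mean above 1. Of 8324 genes tested, 58.0% were called. The number of reads behind these values is unknown.

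For ZTL, the second transcript AT5G57360.2 encodes 626 residues against 609 for AT5G57360.1. Its share of the 2 transcripts was 3.30%, 3.04% and 3.20% at 12 h S and 17.5%, 33.3% and 26.3% at 48 h SL, its lowest and highest means, without overlap. For LKP2, AT2G18915.1 (601 residues, against 611 for AT2G18915.2) had 8.88%, 12.2% and 6.34% at H, 20.5%, 29.98% and 14.8% at 0 h and 48.0%, 70.7% and 51.9% at 1 h S. At 24 h SL its share ran from 12.4% to 73.3% between replicates, and at 48 h SL it was 13.7% to 17.0%. The shares at 0 h and 1 h S did not overlap, while the gene level of LKP2 was not called between them (-0.39 ± 0.17, adjusted p = 0.121).

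For RVE1, AT5G17300.2 encodes 312 residues against 387 for AT5G17300.1. It had 35.6%, 46.4% and 46.4% at 6 h SL, when the gene was lowest, and 10.6%, 15.8% and 17.2% at 24 h SL. At 6 h SL AT5G17300.2 had 0.156 ± 0.0297 and AT5G17300.1 0.207 ± 0.0144 scaled TPM (SD, n = 3), near the pseudocount of 0.1. The whole gene had 36 to 50 reads in a library there. The highest mean share of AT5G17300.2 was at 12 h SL, where the replicates ran from 26.4% to 61.0%. RVE8 had 9 transcripts, of which AT3G09600.1 (298 residues) and AT3G09600.2 (282 residues) had the highest series means. At H their scaled TPM was 16.9 ± 0.815 and 11.9 ± 1.48 (SD, n = 3), and every other transcript was at or below 0.801. At 48 h S they were at 0.134 ± 0.033 and 0.142 ± 0.0287, below AT3G09600.6 (0.662 ± 0.0571), AT3G09600.7 (0.528 ± 0.0985) and AT3G09600.4 (0.385 ± 0.124), so the share of the 2 at that time describes minor transcripts. At 24 h SL AT3G09600.1 led again with 4.18 ± 0.447, and AT3G09600.2 had 1.02 ± 0.285. The exchange with the transcripts other than these 2 was not tested. These time points were picked from the values and carry no test of their own.

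**Figure D5:**
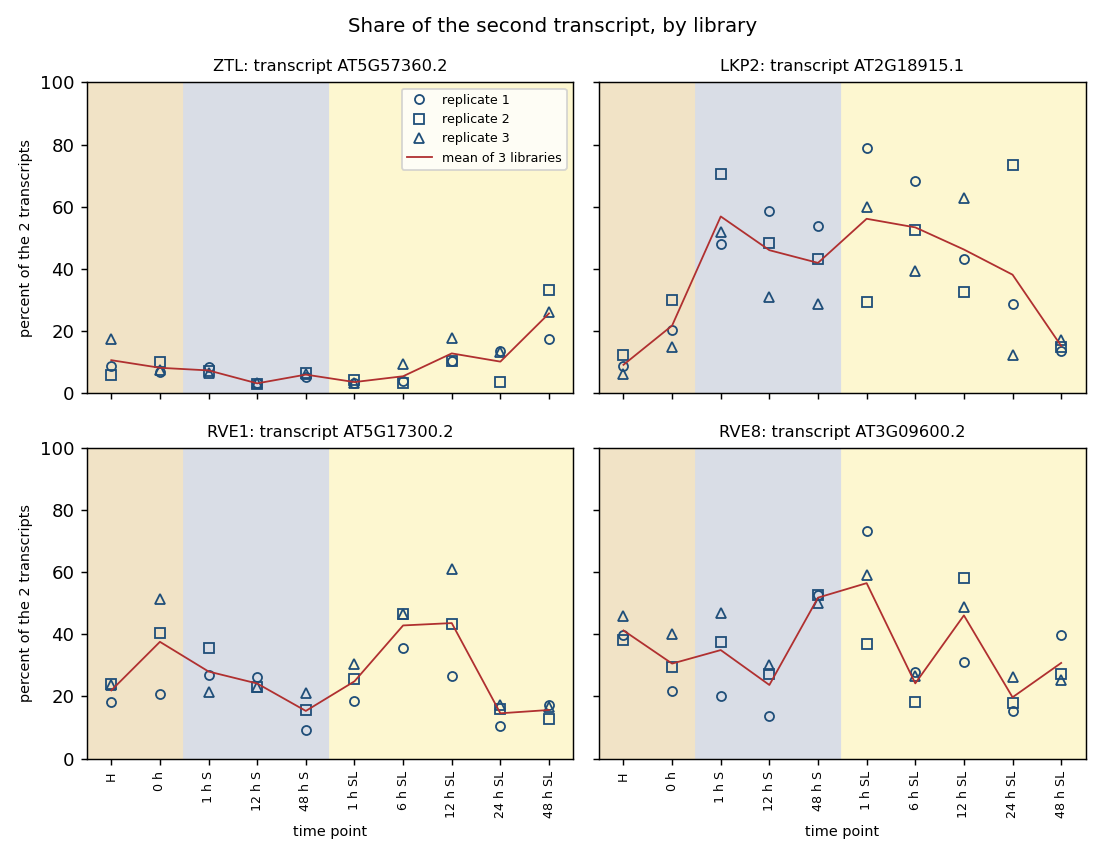
Share (percent of the 2 transcripts with the highest series mean) of the second transcript of ZTL, LKP2, RVE1 and RVE8 in each library; symbols are replicates and the red line joins the means. LKP2 goes from 6.34% to 12.2% at H to 48.0% to 70.7% at 1 h S, and its replicates spread from 12.4% to 73.3% at 24 h SL.

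Among 12 core clock genes, the morning factors CCA1 and LHY had the widest ranges. CCA1 was lowest at 12 h SL (1.97 ± 0.608 CPM) and highest at 48 h S (139 ± 24.9 CPM), and LHY was lowest at 6 h SL (1.71 ± 0.457 CPM) and highest at 24 h SL (111 ± 24.4 CPM). Both rose to 12 h S, with log2 fold changes of 3.76 ± 0.23 and 2.57 ± 0.32, and went on rising to 48 h S (1.06 ± 0.20 and 0.98 ± 0.28), a step at which their relatives RVE1 and RVE2 fell. Both fell to 6 h SL, as did RVE1, RVE2 and RVE8. ELF3, a part of the evening complex, had the smallest range (13.4 ± 1.64 to 43.2 ± 0.471 CPM). Of the list, 6 rose and 2 fell between 1 h S and 12 h S, and 2 rose and 8 fell between 12 h S and 48 h S, where its median was -1.16. The evening element was found upstream of 5 of the 12 (TOC1, PRR5, ELF4, LUX and BOA), a G-box upstream of 6 and a CCA1-binding site upstream of 1. Of all upstream windows, 5.62% held an evening element, 7.87% a G-box and 7.71% a CCA1-binding site.

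Of 7 RVE relatives and LNK partners, LNK3 and LNK4 changed most. LNK3 rose from 50.9 ± 5.54 CPM at 1 h S to 349 ± 14.2 CPM at 12 h S (2.77 ± 0.18, adjusted p = 2.92e-12), the time at which RVE2 was highest, and fell at each later step but 1 to 3.29 ± 0.497 CPM at 48 h SL. LNK4 peaked later, at 48 h S (190.2 ± 6.03 CPM), and was 5.04 ± 0.306 CPM at 48 h SL. LNK1 had the smallest range (10.5 ± 1.37 to 26.8 ± 6.83 CPM). Between 1 h S and 12 h S, 3 of the 7 rose and 2 fell, between 1 h SL and 6 h SL 5 fell and none rose, and between 0 h and 48 h SL all 7 fell, with a median of -2.71. At the rise of RVE8 between 12 h SL and 24 h SL, LNK1 (1.08 ± 0.22) and LNK2 rose and LNK4 (-1.47 ± 0.18) fell.

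The list of GI and FKF1 targets held the CDF factors, 2 of which RefSeq names only as Dof-type genes, and the flowering genes CO and FT. CDF2 had 87.5 ± 1.71 CPM at H and 5.17 ± 0.0751 CPM at 6 h SL, and fell between 12 h S and 48 h S (-2.17 ± 0.15, adjusted p = 2.6e-12), as did FKF1 and GI. The Dof-type gene AT2G34140 had 0.0400 ± 0.0218 CPM at 12 h S and 3.03 ± 0.656 CPM at 48 h S (5.94 ± 0.59, adjusted p = 1.54e-09), the step at which FKF1 fell. CO stayed at or below 1.26 ± 0.23 CPM, and AT1G69570, with at most 0.133 ± 0.0331 CPM, failed the filter on low counts and was not tested. Between 12 h S and 48 h S, 1 of the 6 tested rose and 2 fell, and between 1 h SL and 6 h SL 3 fell and none rose.

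Of 5 genes for the ubiquitin ligase core and the chaperone HSP90.2, which assists the folding of ZTL, HSP90.2 had the widest range. It was lowest at 12 h S (52.7 ± 3.99 CPM) and highest at 24 h SL (777 ± 138 CPM), with calls at 5 of the 9 steps. RBX1, the RING subunit, rose to 12 h S (1.06 ± 0.22, adjusted p = 0.000284) and had its highest mean, 243 ± 12.8 CPM, at 48 h S, and ASK2, an adaptor that binds F-box proteins, had the smallest range (47.5 ± 0.86 to 80.2 ± 10.11 CPM).

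Of the 3 outputs of RVE1, GA3OX2 fell between 1 h S and 12 h S (-3.72 ± 0.64, adjusted p = 3.16e-05), when RVE1 rose, and rose between 12 h S and 48 h S (2.05 ± 0.64), when RVE1 fell. It rose again between 1 h SL and 6 h SL (3.90 ± 0.45, adjusted p = 6.86e-08), when RVE1 fell to its lowest level, from 4.20 ± 2.30 to 67.1 ± 10.8 CPM. Between 48 h S and 1 h SL it rose (2.07 ± 0.47, adjusted p = 0.00292) while RVE1 was not called, and between 12 h SL and 24 h SL, when RVE1 rose, it was not called (-0.13 ± 0.39, adjusted p = 0.8). GA3OX2 was also not called between 6 h SL and 12 h SL, when RVE1 rose, or between 0 h and 48 h S. Its 1 h S libraries ranged widely (3.27 ± 3.78 CPM) and included replicate 2, the shallow library with 702 CPM of photosynthesis markers. The fall from there is given with all libraries only, and whether it holds without that library is not shown here. A link between the levels of RVE1 and GA3OX2 was not tested. PORA, which makes protochlorophyllide oxidoreductase, was called lower between 1 h SL and 6 h SL, when RVE1 fell as well, and had its lowest mean at 6 h SL (0.0327 ± 0.0201 CPM). It rose between 12 h SL and 24 h SL (3.85 ± 0.45) and to 48 h SL (2.62 ± 0.28). YUC8, an auxin synthesis gene, rose to 12 h SL (3.06 ± 0.55) and to 24 h SL (2.57 ± 0.37), and had no reads at H.

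Across 18047 annotated genes with a mean of at least 1 CPM, the genes most like each member over the 30 libraries were taken by the Pearson correlation of log2(CPM + 1). For GI they were the dicer gene DCL4 (0.96), AT3G33530 (0.96) and AT5G47480 (0.95), and for ZTL the cytokinin response regulator RR1 (0.98), AT1G27430 (0.98) and AT1G15240 (0.97). For LKP2 they were AT5G58720 (0.99), AT4G36210 (0.98) and AT3G19910 (0.98), and for FKF1, whose nearest genes were less like it, ZIFL1, AT1G29800 and AT3G46930 (0.86 each). For RVE1 they were AT5G24600 (0.94), AT4G21903 (0.93) and the kinase gene MKK9 (0.92), and for RVE2 APD2 (0.95), RABB1C (0.95) and AT5G05140 (0.94). For RVE4 they were AT5G06370, AT5G12310 and PAHX (0.96 each), for RVE6 AT3G05640 (0.98), UPS4 (0.97) and AT3G53970 (0.97), and for RVE8 AT3G56880, UGT87A2 and SPPL4 (0.96 each). No member was among the 3 genes nearest to another. Between members the highest correlations were 0.88 (RVE4 and RVE6), 0.87 (GI and ZTL) and 0.84 (LKP2 and RVE8). The libraries share time points and depth, and these values are descriptions without a test.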

How the data were processed

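Wild-type Arabidopsis seed and seedlings were profiled by RNA-seq at 10 time points with 3 biological replicates each. The authors made the deposited gene counts from reads trimmed with Trim Galore 0.4.2, aligned to TAIR10 with HISAT2 2.0.5 and counted with featureCounts 1.5.1 over an Araport11-based annotation. The table also gave a gene length, an other value per the file headers, which was used for RPKM. Libraries were unstranded, so reads of overlapping genes cannot be separated, and the treatment of reads that map to several places is not given in the sources used here. The authors' transcript values are a signal, TPM from Salmon 0.7.2 and sleuth 0.28.1, which the values show to be divided by a factor per library. Deposited tables of the authors' own comparisons, with log2 values, fold changes and q-values, hold their results and were not used.

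Of 38217 features, 37336 are annotated genes and 881 are loci assembled by the authors, and 37051 of the annotated genes (99.2%) matched RefSeq by locus. Counts were fitted with edgeR 4.0.16 (R 4.3.3) by the quasi-likelihood test in 1 model over all 30 libraries, after filterByExpr (minimum count 10) and TMM scaling. Adjusted p-values are Benjamini-Hochberg over the 23222 features tested in a comparison. The time effect was tested with the likelihood ratio test of DESeq2 1.42.0, and isoform ratios with limma 3.58.1 on log2 values with a pseudocount of 0.1. The edgeR, DESeq2 and limma steps were tested on simulated data. There were 12 comparisons, 9 of them between consecutive time points. Same-numbered replicates did not deviate together, so numbers were not used as pairs. Alternatives were DESeq2 size factors, library size alone, no filter, a replicate block, the 6 libraries of a comparison alone, the DESeq2 Wald test, a threshold of 0.05, each library left out in turn, and 4 libraries that stood apart left out, the last chosen after seeing the data.

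The genes and lists were chosen with earlier results of these data known. All 9 genes are named, with values per library for GI, FKF1, RVE1, RVE2 and any other member called in at least 3 consecutive comparisons. For each list of related genes the text names the 2 genes with the highest ratio of highest to lowest mean CPM, computed with 0.1 added to each mean, the 1 with the lowest, and any that failed the filter. Other list genes named beside a count were chosen after their values were seen. The nearest 3 genes of each member are given by correlation. Replicates came from 1 batch of plants, so p-values measure the spread between these samples.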

Additional observations from a re-analysis of the deposited data

How the results depend on the processing

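The members called at each step were recomputed under each alternative. Of 994 recomputed gene values, 912 kept their direction and their side of the threshold, 53 lost the call, 26 gained it and 3 changed sign, all with library size alone: LKP2 between 48 h S and 48 h SL (0.30), and GI (1.20) and RVE1 (0.42) between 0 h and 48 h SL. Of 58 called gene values, 45 stayed called in the same direction under every alternative. The threshold of 0.05 on the same fit cannot remove a call, so for called values its results among the 912 were fixed in advance. Between H and 0 h, where 0 members were called, 5 were called without the 4 libraries that stood apart, 8 with the 6 libraries alone, 1 with the DESeq2 Wald test and 3 at a threshold of 0.05. Between 0 h and 1 h S the count of 1 became 0 with library size alone or with the 6 libraries alone, and ran from 0 to 4 when single libraries were left out. Between 1 h S and 12 h S the count of 4 became 7 without the 4 libraries. Between 48 h S and 1 h SL the count of 5 became 1 with the 6 libraries alone and ran from 1 to 5 when single libraries were left out. The causes of these changes were not tested. The shares of all genes called are not given for the fits with libraries left out, to the 6 libraries alone or by the DESeq2 Wald test.

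With the replicate number as a block the count between 0 h and 1 h S became 0 (ZTL, adjusted p = 0.0112), and no other count of members changed. The numbers do not pair the samples: of 12 comparisons, 1 had all 3 same-number correlations over 0.1, and 12 of 36 library comparisons were closest for the same number.

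The split of all genes moved with the scaling. Between H and 0 h there were 594 higher and 1454 lower with TMM, 787 and 884 with DESeq2 size factors, and 954 and 419 with library size alone. Depth limits 1 h S replicate 2 most, and the depth behind transcript values is unknown.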
